A study of Arabidopsis thaliana with 15 samples.

Results

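Shoots of Arabidopsis seedlings that lacked most transcript of one or the other gene for ribosomal protein eS6 were set against each other, rps6a against rps6b, gene by gene. The comparison used 6 of the 15 libraries of the series, 3 from rps6a and 3 from rps6b, chosen by their labelled genotype. The other libraries were 3 each of WT, eS6A-HA and eS6A-Δ6SA, and the last 2 lines carry an eS6A transgene in plants mutant for both genes. All seedlings were 12 days old and grew on 1/2-strength MS medium in light of 80 µE for 16 h and darkness for 8 h a day. Shoots were scraped off frozen plants, and total RNA was depleted of ribosomal RNA and sequenced with ERCC spike-in RNAs added. The rps6a and rps6b labels name no allele, ecotype or kind of mutation, and nothing states how many plants or cultures stood behind a library, so p-values measure the spread between these libraries, which may be technical.

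Ribosomal protein eS6 sits in the small subunit of the cytosolic ribosome. It is the classical substrate of S6 kinase, which acts downstream of the growth regulator TOR, and its phosphorylated serines lie at the end of the protein. In Arabidopsis a pair of paralogous genes, RPS6A and RPS6B, encodes almost the same protein, and each single mutant is viable. A comparison between the single mutants asks where loss of one copy differs from loss of the other.

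Gene reads ranged from 5726410 to 8319828 in the rps6a libraries and from 8549434 to 10009723 in the rps6b libraries. Levels are normalized counts, read counts divided by a size factor per library, and are not divided by gene length. The shoot markers RBCS1A, CAB1 and LHCA1 were among the most abundant nuclear transcripts, with at least 41664 normalized counts for RBCS1A in every rps6a library. Of 13 root markers, 8 were listed and only the beta-glucosidase gene PYK10 (BGLU23) passed the filter on low levels. The other root markers together summed to 22.8 ± 3.06 normalized counts in rps6a (SD, n = 3), 9.54 ± 3.57 in rps6b and 4.57 ± 4.31 in WT. The first principal component of the 6 libraries held 36.1% of the variance and placed every rps6a library between -25.1 and -12.3 and every rps6b library between 16.1 and 19.97.

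RPS6A transcript was nearly gone from rps6a, whereas RPS6B transcript was only reduced in rps6b. RPS6A (AT4G31700, listed as RPS6) stood at 60.5, 85.5 and 63.5 normalized counts in rps6a, at 1579, 1800 and 1792 in rps6b and at 1062, 969 and 824 in WT. RPS6B (AT5G10360, listed as EMB3010) stood at 1190, 1250 and 1225 in rps6a, at 253, 270 and 276 in rps6b and at 978, 918 and 899 in WT. No library of either mutant overlapped the other mutant at either gene. The log2 fold change of rps6a against rps6b was -4.62 for RPS6A (SE 0.11, adjusted limma p 2.46e-21) and 2.19 for RPS6B (SE 0.10, adjusted limma p 4.51e-18). RPS6B in rps6b was still above its level in both transgenic double mutants, where no library passed 95.9. Against WT, the intact copy was higher in each mutant, by 0.86 on the log2 scale for RPS6A in rps6b (adjusted limma p 1.14e-06) and by 0.39 for RPS6B in rps6a (adjusted limma p 0.00405).

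Summed over both genes, eS6 transcript was 1251, 1335 and 1289 normalized counts in rps6a and 1832, 2071 and 2068 in rps6b, against 2041, 1887 and 1723 in WT. The rps6a libraries all lay below the rps6b and WT libraries, and the rps6b and WT libraries overlapped. The difference between the mutants, -699 normalized counts, had an exact two-sided permutation p of 0.1, which is the smallest that 3 against 3 libraries can give and remained 0.1 after adjustment over the 4 single-value tests. The sum depends on the scaling: with spike-in scaling the difference was -287.

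Reads can be assigned to one paralog or the other because the genes differ throughout. Their coding sequences, 753 bases in RPS6A and 750 in RPS6B, aligned with 84.7% identical positions, 112 base differences and 3 gap positions. The longest identical run was 37 bases, shorter than the 75-base reads. The end of the coding sequence, where the phosphorylated serines of the protein are encoded, is shown here from the RefSeq annotation of TAIR10.1 on the minus strand of chromosomes 4 and 5, as the last 78 bases of RPS6A and the last 75 of RPS6B, with the differing bases in capitals.
RPS6A: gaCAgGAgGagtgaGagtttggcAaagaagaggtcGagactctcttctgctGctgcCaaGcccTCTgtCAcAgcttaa
RPS6B: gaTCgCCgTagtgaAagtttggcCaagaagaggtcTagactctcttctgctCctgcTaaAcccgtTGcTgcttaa
In this stretch the copies differed at 14 aligned bases, and 3 further bases occurred only in RPS6A.

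**Figure D1:**
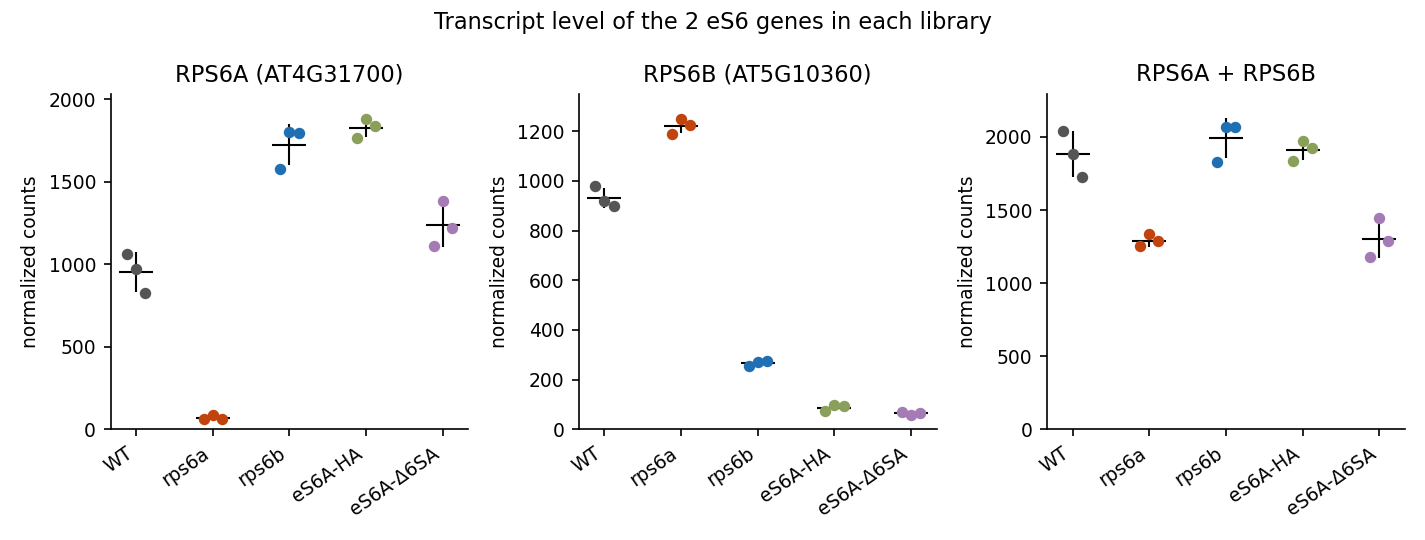
Normalized counts (y axes, linear from 0) of RPS6A, RPS6B and their sum in the 3 libraries of each of the 5 genotypes. Points are libraries, horizontal bars are means and vertical bars are SDs. RPS6A stays at or below 85.5 in rps6a, RPS6B lies between 253 and 276 in rps6b, and the sum is lowest in rps6a and eS6A-Δ6SA.

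Beyond the mutated genes the mutants differed at few genes and mostly by small amounts. Of 16335 genes with a mean of at least 10 normalized counts over all 15 libraries, 477 (2.92%) differed at an adjusted p under 0.05 in limma, 213 higher in rps6a (1.3%) and 264 lower (1.62%). The median absolute log2 fold change of these genes was 0.53, and 94 reached 1, of which 58 were higher and 36 lower in rps6a. The mutants' libraries did not overlap in 472 of the 477 genes, against 3390 of all genes tested (20.8%). All 213 genes that were higher in rps6a were nuclear, whereas the 264 lower genes included 67 of the plastid genome and 8 of the mitochondrial genome. Without rps6a replicate 1 the count was 293 and without rps6b replicate 3 it was 316.

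Both directions are relative to the bulk of transcripts. Spike-in RNA took 5.15%, 4.62% and 4.73% of reads in rps6a and 5.39%, 6.08% and 5.55% in rps6b, with no overlap and an exact permutation p of 0.1. When libraries were scaled to the spike-ins, the median log2 fold change of all genes moved from 0.00 to 0.37, and the number that differed was 4641, with 4603 (99.2%) in favour of rps6a. With the deposited scaling 44.7% were higher in rps6a. A gene described as lower in rps6a is thus lower relative to the median gene, and spike-in values are given for the named genes and list medians whose direction they change.

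**Figure D2:**
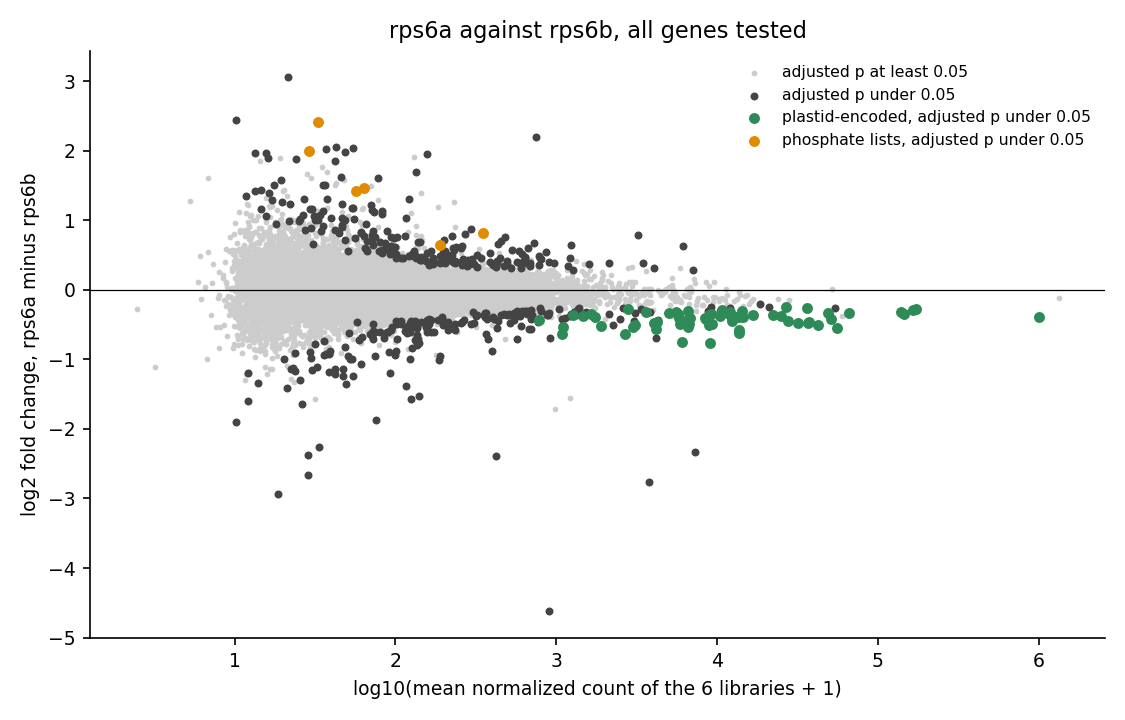
Log2 fold change of rps6a against rps6b (y axis) against the log10 mean level in the 6 libraries (x axis) for the 16335 genes tested. Dark and coloured points are the 477 genes that differed. RPS6A is the lowest point at -4.62, the plastid-encoded genes form a band a little below 0 at high levels, and the phosphate genes that differed lie between 0.65 and 2.41.

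The 12 largest rises among genes with at least 50 normalized counts in the higher group, with no overlap between libraries, ran from 1.504 to 2.41 on the log2 scale and include RPS6B. The largest belonged to IPS1, a non-coding RNA of phosphate starvation described with its pathway. DWF5 (AT1G50430), which encodes a sterol reductase needed for brassinosteroid synthesis, had 261, 256 and 226 normalized counts in rps6a and 60.4, 65.2 and 63.8 in rps6b. WT stood at 245, 182 and 191, eS6A-HA at 188, 208 and 212 and eS6A-Δ6SA at 199, 223 and 235. The low level was thus found in the rps6b libraries and in none of the other 12. The log2 fold change between the mutants was 1.95 (SE 0.12, adjusted limma p 1.07e-14). Against WT it was -1.68 in rps6b (adjusted limma p 2.15e-13) and 0.27 in rps6a (adjusted limma p 0.0911).

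The other large rises were of mixed annotation. The P450 gene CYP708A2 (AT5G48000), which acts in synthesis of the triterpene thalianol, had 64.1, 38.2 and 94.4 normalized counts in rps6a and 19.6, 20.4 and 10.8 in rps6b, a log2 fold change of 1.85 (SE 0.32, adjusted limma p 0.000329). A predicted acyl-transferase gene, AT4G15390, stood at 76.2, 39.9 and 90.3 in rps6a and at 18.04, 15.5 and 11.7 in rps6b, with WT at 12.4 or below. A chitinase family gene, AT2G43590, had 119, 101 and 124 in rps6a and 40.8, 48.9 and 25.2 in rps6b. A MATE efflux family gene, AT2G04050, had 109, 84.7 and 66.0 in rps6a, 19.6, 20.4 and 19.8 in rps6b and no more than 3.81 in WT. Its difference between the mutants was 2.04 (SE 0.50, adjusted limma p 0.0143), and the call was lost in 5 of the 6 fits that left out a library, every one but that without rps6a replicate 3. Both mutants were above WT for this gene, by 4.66 in rps6a and 2.62 in rps6b on the log2 scale. AT2G18193, an ATPase-like gene, was also above WT in both, and its difference of 1.98 (adjusted limma p 0.00883) was lost without rps6a replicate 3 or rps6b replicate 1. The latex-protein-like genes MLP328 (2.02) and MLP34 (1.69), AT5G37990 (1.63) and AT2G43535 (1.504) were the others.

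PYK10 (AT3G09260), the main beta-glucosidase of endoplasmic reticulum bodies and a gene of high expression in roots, was also higher in rps6a. It had 3906, 3579 and 4828 normalized counts in rps6a, 2453, 2361 and 2282 in rps6b and 1307, 1394 and 2021 in WT. The log2 fold change was 0.78 (SE 0.13, adjusted limma p 0.00302). It overlaps AT3G09250 on the opposite strand, and whether the counting used strand is not given in the sources used here. The other listed root markers were low and were not tested one by one, but their sum was also higher in rps6a than in rps6b, with no overlap between 19.4 to 25.1 and 6.52 to 13.5 normalized counts. Among the rps6a libraries PYK10 was highest in replicate 3 and lowest in replicate 2. The sum of the other root markers had another order, with 19.4, 24.1 and 25.1 in rps6a replicates 1, 2 and 3. Of the largest rises, CYP708A2, AT4G15390, AT2G43590, MLP328, MLP34, AT5G37990 and AT2G43535 had the order of PYK10. RPS6B, IPS1, DWF5, AT2G04050 and AT2G18193 did not. Root material on the shoots and a change of PYK10, the root markers or these rises within shoots were not told apart: the part of either in the result was not tested.

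The 12 largest falls led with RPS6A and ran to -1.23. Of the rest, 3 were transcripts whose level varied widely among rps6b libraries. The mitochondrial ID ATMG01390 had 876, 1080 and 791 normalized counts in rps6a and 7908, 3560 and 8312 in rps6b, and ATMG00020 had 1854, 2259 and 1914 against 23678, 4547 and 9531. The non-coding RNA AT3G06355 had 125, 139 and 113 against 967, 354 and 832. For all 3 the rps6b libraries lay above every WT library, and all 3 calls were lost when the spread came from the 6 libraries alone. The call of ATMG00020 was also lost without any 1 rps6a library and without rps6b replicate 3. The nuclear 18S ribosomal RNA gene AT2G01010 stood at 13.3, 9.96 and 8.36 in rps6a and at 57.2, 42.4 and 62.0 in rps6b (log2 fold change -2.25, adjusted limma p 0.00357). RNA of this kind was removed before sequencing, and together the pair of annotated 18S genes ranged from 177 to 745 normalized counts in rps6a and from 346 to 3610 in rps6b, so the groups overlapped.

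AT5G15780, a gene of a pollen Ole e 1 allergen and extensin family, had 73.8, 64.8 and 72.7 normalized counts in rps6a, 242, 158 and 222 in rps6b and 88.9, 123 and 82.0 in WT. Its log2 fold change was -1.52 (SE 0.15, adjusted limma p 2.02e-08), with every rps6a library below and every rps6b library above those of WT. AT2G30766, which overlaps AT2G30760 and AT2G30770 on the opposite strand, had 46.0, 73.9 and 66.0 in rps6a, 184, 143 and 233 in rps6b and 51.0, 76.3 and 63.9 in WT (-1.57, SE 0.18, adjusted limma p 1.61e-06), so that rps6a overlapped WT. The glutathione-degrading ChaC-like gene AT5G26220 (-1.36), the leucine-rich repeat extensin gene AT3G24480 (-1.39) and the glycine-rich protein gene GRP23 (-1.23) also had rps6b above WT, with rps6b above WT by 1.13 to 1.72 on the log2 scale and rps6a within 0.36 of it. ARR7, a type-A response regulator of cytokinin signalling, was instead at 55.7, 67.6 and 68.3 in rps6b, 62.8, 43.6 and 53.4 in WT and 15.7, 38.2 and 30.1 in rps6a (-1.24, SE 0.25, adjusted limma p 0.00295).

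Phosphate-starvation genes were higher in rps6a where they differed, and the phosphate-saving enzymes had the highest median of any list with more than 1 tested member. Plants short of phosphate raise PHR1-dependent transcripts that increase uptake, release phosphate from organic compounds and replace phospholipids by galactolipids and sulfolipids. The IPS1 transcript acts in this response as a decoy that binds the microRNA miR399 without being cut, which spares PHO2, the transcript that miR399 targets. The stretch of IPS1 that pairs with a miR399 is shown because IPS1 had the largest rise. The IPS1 site lies at chr3:3051224-3051247 on the plus strand and the miRNA at chr1:23345387-23345407 on the minus strand of TAIR10.1 (RefSeq), both written 5′ to 3′ in DNA letters, with pairing bases in capitals in the site and bases 2 to 8 in capitals in the miRNA.
IPS1 site: ttGGGCAACTtctaTCCTTTGGCA
MIR399b: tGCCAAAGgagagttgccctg
Of the 21 miRNA bases, 18 pair, and 3 bases of IPS1 bulge out at the place where a target would be cut.

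IPS1 (AT3G09922) had 52.0, 55.6 and 56.0 normalized counts in rps6a, 10.98, 10.6 and 7.19 in rps6b and 14.2, 19.97 and 20.02 in WT. The rps6a libraries stood well above all others of the 3 genotypes, and the rps6b libraries were all below WT. The log2 fold change between the mutants was 2.41 (SE 0.32, adjusted limma p 1.04e-05), made of 1.56 against WT in rps6a (adjusted limma p 0.000427) and -0.85 in rps6b (adjusted limma p 0.05002, just past the threshold). PHT1;4 (AT2G38940), a high-affinity phosphate transporter gene, had 85.9, 80.5 and 79.4 in rps6a, 35.3, 26.9 and 27.8 in rps6b and 23.7, 16.3 and 31.5 in WT (log2 fold change 1.43, SE 0.28, adjusted limma p 0.00309). Here rps6b overlapped WT and rps6a stood apart from both.

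Genes of lipid remodelling made up 3 of the 4 phosphate-saving enzymes that differed. MGDC (AT2G11810), a galactolipid synthase gene also known as MGD3, had 38.7, 43.2 and 54.3 normalized counts in rps6a, 13.3, 9.78 and 8.98 in rps6b and 24.9, 15.4 and 38.1 in WT. Its log2 fold change was 1.99 (SE 0.35, adjusted limma p 0.00114), with every rps6a library above and every rps6b library below those of WT. PLDP2 (AT3G05630), a phospholipase D gene that supplies lipid for this exchange, had 90.7, 84.7 and 102 in rps6a and 39.2, 34.2 and 26.1 in rps6b (1.47, SE 0.26, adjusted limma p 0.00260), with WT at 28.5, 62.6 and 61.0. SQD2 (AT5G01220), a sulfolipid synthase gene, had 422, 438 and 480 in rps6a, 256, 273 and 231 in rps6b and 526, 621 and 665 in WT. Both mutants lay below every WT library, with log2 fold changes of -0.43 in rps6a (adjusted limma p 0.138) and -1.25 in rps6b (adjusted limma p 0.00036). Its difference between the mutants, 0.82 (SE 0.19, adjusted limma p 0.0380), was lost when any 1 of the 6 libraries was left out. PPCK1 (AT1G08650), a kinase of phosphoenolpyruvate carboxylase, had 206, 237 and 252 in rps6a, 162, 136 and 143 in rps6b and 192, 225 and 198 in WT (0.65, SE 0.14, adjusted limma p 0.00682). PLDP2 and PPCK1 each overlap a gene on the opposite strand.

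**Figure D3:**
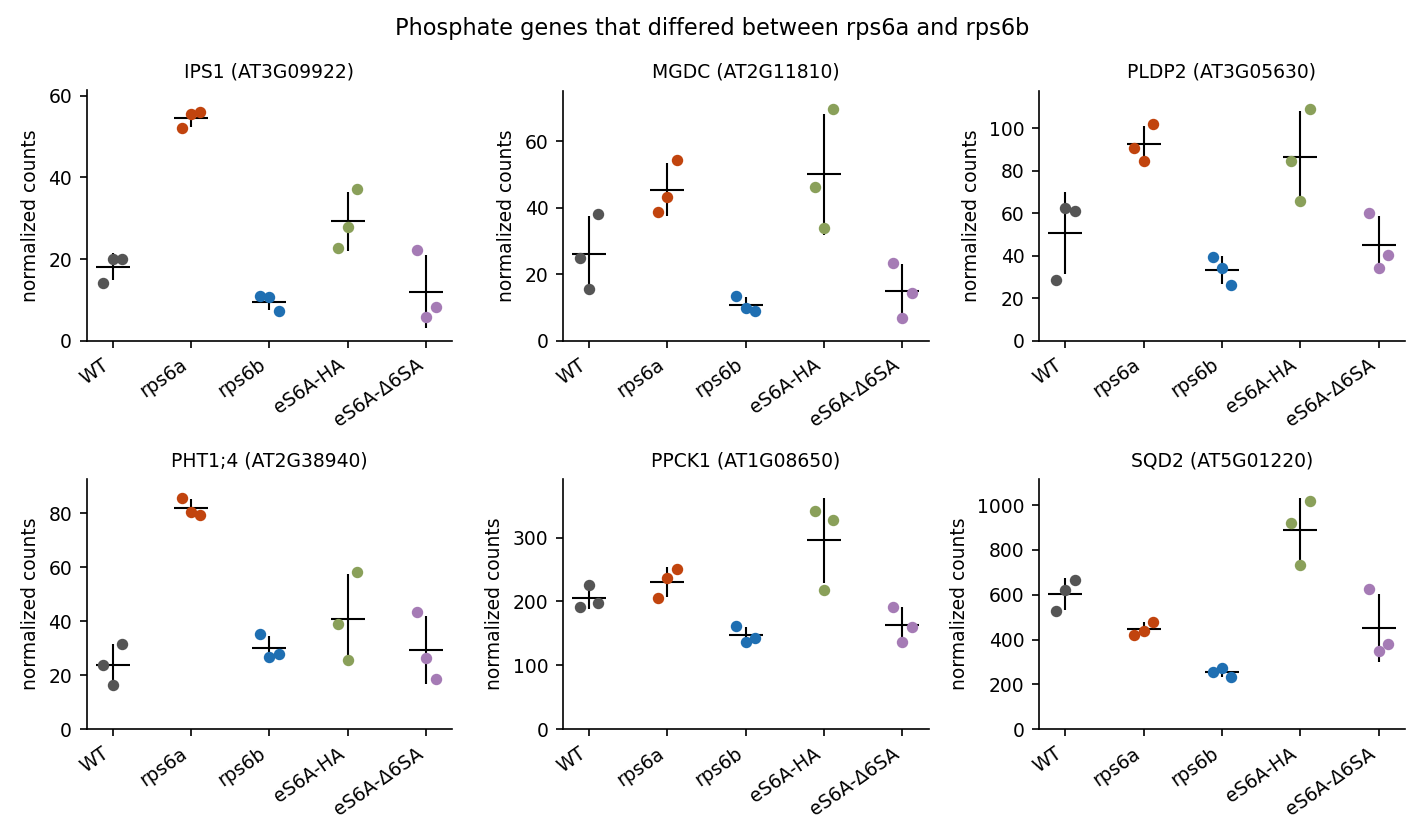
Normalized counts (y axes, linear from 0) of the 6 phosphate genes that differed between rps6a and rps6b, in the 3 libraries of each of the 5 genotypes. Points are libraries, horizontal bars are means and vertical bars are SDs. In each panel all rps6a points lie above all rps6b points, while WT lies with rps6b for PHT1;4, between the mutants for IPS1 and above both for SQD2.

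In all, 2 of 14 tested genes of phosphate signalling and transport and 4 of 14 tested phosphate-saving enzymes were higher in rps6a and none was lower. These are 14.3% and 28.6% of the members, beside 1.3% of all genes tested that were higher in rps6a. The median log2 fold changes were 0.21 and 0.57, against 0.00 for all genes, and 11 of 14 and 13 of 14 had a positive sign. The counts of higher members, 2 and 4 in limma, were 5 and 7 in edgeR, 3 and 7 in DESeq2 and 8 and 12 with spike-in scaling, with none lower in any of them. Several members missed the threshold although their libraries did not overlap. The phosphatase gene PS2 (AT1G73010) had 186, 208 and 222 in rps6a and 55.7, 66.0 and 42.2 in rps6b (1.91, SE 0.56, adjusted limma p 0.121), and PEPC1 (AT1G17710, PECP1) had 42.3, 63.1 and 54.3 against 17.3, 12.2 and 15.3 (1.76, SE 0.59, adjusted limma p 0.175). The phosphate sensor gene SPX1 had 180, 175 and 188 against 105, 109 and 102 (0.78, adjusted limma p 0.340), and WT overlapped rps6a. PHR1, which encodes the master regulator, had 249, 198 and 210 against 256, 253 and 248 (-0.21, adjusted limma p 0.376; 0.16 with spike-in scaling). PHO2 had 573, 713 and 726 in rps6a, 921, 813 and 851 in rps6b and 979, 1182 and 1032 in WT (-0.37, adjusted limma p 0.0782; 0.0079 with spike-in scaling). Among the acid phosphatase genes, PAP17 overlapped between the mutants (0.07). The most abundant saving genes that did not differ changed less: SQD1 by 0.19, G3Pp1 by 0.26 and PAP10 by 0.23. SQD1 averaged 570 in rps6a, 502 in rps6b and 747 in WT, and G3Pp1 473, 394 and 672. Summed over the phosphate-saving list, libraries ranged from 2657 to 3110 in rps6a, from 1905 to 2074 in rps6b and from 2865 to 3469 in WT.

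PHR1 binds the P1BS element, GNATATNC. The motif reads the same on both strands and was searched in the 300 bases before each annotated gene start. It occurred in 7 of the 28 tested phosphate genes and in 1785 of the 27443 promoters of protein-coding genes (6.50%). Of the 6 phosphate genes that differed, 2 held a match, PLDP2 and PPCK1, while IPS1, PHT1;4, MGDC and SQD2 held none. Among the phosphate genes that did not differ, AT5G03545, NLA, MGD2, SRG3 and PS2 held matches as well. The promoter of PLDP2 is shown as an example in TAIR10.1 from RefSeq, at chr3:1634894-1635193 on the plus strand, with the match in capitals.
PLDP2: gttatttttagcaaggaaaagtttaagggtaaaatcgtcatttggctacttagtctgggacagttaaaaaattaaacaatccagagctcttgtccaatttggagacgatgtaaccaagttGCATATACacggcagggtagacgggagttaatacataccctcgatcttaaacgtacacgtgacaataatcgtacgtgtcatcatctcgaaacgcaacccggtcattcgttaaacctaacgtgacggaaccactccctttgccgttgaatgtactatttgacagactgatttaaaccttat
The match begins 180 bases before the start. A match describes the letters of the window and is no measure of binding.

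Transcripts of the plastid genome were lower in rps6a almost throughout. Of 103 tested plastid-encoded genes 67 (65.0%) were lower and none was higher, beside 1.62% of all genes tested, and 96 had a negative sign. Their median log2 fold change was -0.37. With spike-in scaling the median was 0.00, with 5 genes higher and none lower in rps6a, so the difference is one against nuclear transcripts. ATCG01100 had 9937, 11048 and 11712 normalized counts in rps6a, 17064, 17334 and 15652 in rps6b and 14748, 16190 and 14741 in WT (-0.62, SE 0.07, adjusted limma p 2.63e-07; -0.24 with spike-in scaling, adjusted limma p 0.117). ATCG00040 instead had rps6a near WT and rps6b above it, with a log2 fold change of -0.56 (adjusted limma p 1.14e-06). The plastid ID with the most reads, ATCG00020, had -0.11 (SE 0.06, adjusted limma p 0.396; 0.26 with spike-in scaling) and was below WT in both mutants.

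Plastid genes took 52.0%, 52.4% and 52.5% of gene reads in rps6a, 56.3%, 57.03% and 56.2% in rps6b and 59.1%, 59.7% and 58.7% in WT. The 3 genotypes did not overlap, with rps6a lowest and WT highest. The difference between the mutants was -4.20 percentage points (exact permutation p 0.1, the smallest possible). Without ATCG00020 the share was 33.8 ± 1.29% in rps6a, 38.8 ± 0.460% in rps6b and 32.6 ± 0.468% in WT (SD, n = 3), so the place of WT depends on that ID. A share alone does not tell fewer plastid transcripts from more nuclear ones. Fewer plastids or plastid-rich cells and less plastid RNA per cell cannot be told apart in bulk RNA either.

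**Figure D4:**
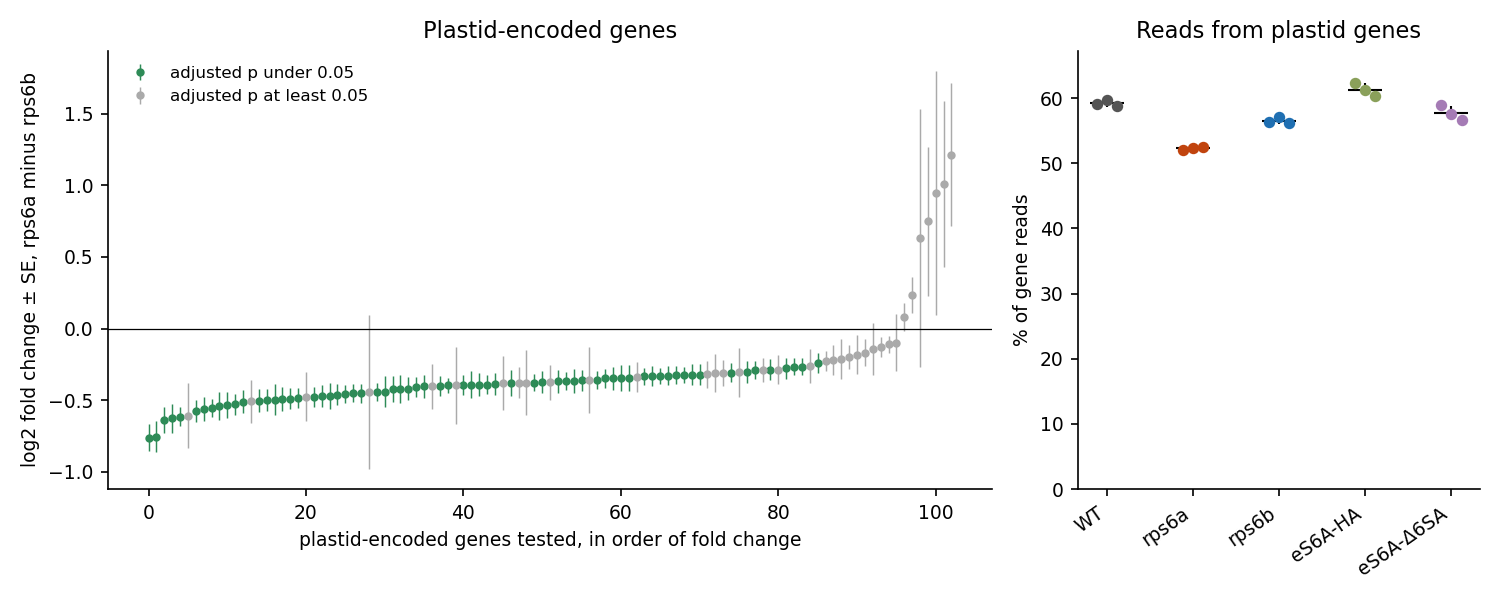
Left, log2 fold change of rps6a against rps6b with its SE for the 103 tested plastid-encoded genes in order of size; the 67 green points differed. Right, share of gene reads from plastid genes in the 3 libraries of each genotype, with means and SDs; rps6a lies lowest, at 52.3 ± 0.283%.

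Some nuclear genes for the light-harvesting antenna were also lower in rps6a. Of 23 tested members of the list of antenna and Rubisco small subunit genes, 6 (26.1%) were lower, beside 1.62% of all genes tested, and none was higher. The median was -0.16 (0.21 with spike-in scaling). All 6 encode chlorophyll-binding antenna proteins of photosystem II. LHCB4.3, a minor antenna gene, had 70.1, 59.8 and 61.8 normalized counts in rps6a, 109, 103 and 99.7 in rps6b and 64.0, 49.9 and 38.1 in WT (-0.70, SE 0.17, adjusted limma p 0.0124). The abundant CAB1 had 49235, 51419 and 48158 in rps6a and 61869, 60053 and 55954 in rps6b (-0.26, SE 0.07, adjusted limma p 0.0212), and WT, at 62317, 63082 and 53594, overlapped rps6b and lay above rps6a. LHCB2.1 (-0.31), LHCB5 (-0.26), LHCB2.3 (-0.25) and CAB2 (-0.24) were the others. Reads of near-identical antenna genes may be counted at the wrong copy. With spike-in scaling CAB1, CAB2, LHCB2.1, LHCB2.3 and LHCB5 turned to values between 0.06 and 0.14, with 3 members of the list higher and none lower in rps6a. The number of members that were lower ranged from 0 without rps6b replicate 1 to 5 without rps6b replicate 3, being 1 without rps6a replicate 1 or rps6b replicate 2 and 2 without rps6a replicate 2 or 3. RBCS1A, with 68283, 46691 and 41664 in rps6a, overlapped rps6b (0.01).

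Mitochondria-encoded genes showed a smaller difference. Of 53 tested, 8 (15.1%) were lower in rps6a, beside 1.62% of all genes tested, and none was higher, with a median of -0.24. With spike-in scaling the median was 0.14, and 6 were higher and 2 lower. Fits that left out 1 library gave from 2 lower genes, without rps6a replicate 2 or rps6b replicate 3, to 10, without rps6b replicate 2; 3 remained without rps6a replicate 1 or rps6b replicate 1. Mitochondrial genes took 0.569%, 0.586% and 0.571% of gene reads in rps6a, 0.958%, 0.620% and 0.787% in rps6b and 0.371%, 0.378% and 0.389% in WT (exact permutation p 0.1 between the mutants). Without ATMG00020 and ATMG01390 the shares were 0.533 ± 0.00415% in rps6a, 0.542 ± 0.0216% in rps6b and 0.350 ± 0.00502% in WT, and the mutants overlapped. Both mutants thus stood above WT in this share, and those IDs held nearly all of the gap between the mutants.

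None of the listed genes for cytosolic ribosomal proteins differed, but 11 ribosomal genes outside the list did, among them the cytosolic RPS15. The list was drawn by the wording of product names, which left RPS15 out. Over all genes tested 2.92% differed, a share at which a list of this length can hold no differing gene. None of the 60 tested members of the list of cytosolic ribosomal protein genes, which is not complete and leaves out RPS6A and RPS6B, differed in limma, edgeR or DESeq2, and 2 had an unadjusted p under 0.05 in limma. Their median log2 fold change was -0.08, and 42 of the 60 were below 0. With spike-in scaling the median was 0.29 and 13 were higher in rps6a. The ribosomal protein gene AT5G20290 had 2834, 3127 and 2664 normalized counts in rps6a, 2743, 3109 and 3150 in rps6b and 2255, 2411 and 2041 in WT, so that the mutants overlapped above WT (-0.06; 0.31 with spike-in scaling). Outside the list, 301 tested genes have a RefSeq product name that contains ribosomal or ribosome, a group drawn up after the data were seen. Of these 11 (3.65%) were lower in rps6a, beside 1.62% of all genes tested, and none was higher, with a median of -0.09 (0.28 with spike-in scaling, where 52 were higher and none lower). RPS15 (AT1G04270), named there as a cytosolic protein of the small subunit, had 726, 803 and 749 normalized counts in rps6a, 980, 977 and 981 in rps6b and 647, 650 and 558 in WT (-0.37, SE 0.08, adjusted limma p 0.00563; 0.0064 with spike-in scaling). Both mutants lay above WT, and rps6b lay above rps6a. RPS15 was the only one of the 11 named as cytosolic. AT3G53430 (L11 family) had -0.31 and AT5G18380 (S5 domain 2-like) had -0.36, with 0.07 and 0.02 under spike-in scaling. The names of these and the others give no compartment, so genes for cytosolic, plastid and mitochondrial ribosomes among them were not told apart. Of the 11, AT2G43030, named as a ribosomal protein L3 family gene, had the lowest fold change, with 1653, 1826 and 2140 in rps6a, 2514, 2787 and 2611 in rps6b and 1862, 1872 and 1833 in WT (-0.50, SE 0.08, adjusted limma p 0.000194; -0.13 with spike-in scaling).

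Ribosome biogenesis genes gave 0 of 31 in limma and DESeq2 and 1 in edgeR (median 0.03, 3 at an unadjusted p under 0.05 in limma), beside 2.92% of all genes tested in limma. With spike-in scaling 16 were higher in rps6a and the median was 0.41. Among them was the nucleolar gene FIB1, at 433, 503 and 395 normalized counts in rps6a and 379, 441 and 471 in rps6b, which overlapped.

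In the TOR and S6 kinase list 1 of 11 tested genes differed, beside 2.92% of all genes tested; DESeq2 gave 0, and with spike-in scaling 6 were higher in rps6a. S6K2, one of the 2 S6 kinase genes, had 49.6, 57.3 and 59.3 normalized counts in rps6a, 42.3, 31.0 and 22.5 in rps6b and 40.3, 33.6 and 43.9 in WT (0.82, SE 0.23, adjusted limma p 0.0456). This call was near the threshold and held only without rps6b replicate 1 among the fits that left out a library. S6K1 (AT3G08730, listed as PK1) had 718, 737 and 728 in rps6a and 645, 688 and 748 in rps6b, and TOR had 440, 452 and 440 against 483, 400 and 490. Both overlapped, with log2 fold changes of 0.07 and -0.04 (0.34 for TOR with spike-in scaling).

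A few aliphatic glucosinolate genes were slightly higher in rps6a. These methionine-derived compounds defend Brassicaceae against herbivores. Of 18 tested members 4 (22.2%) were higher, beside 1.3% of all genes tested, and none was lower. The median was 0.30 and 17 of 18 were positive; with spike-in scaling 17 were higher and the median was 0.67. The regulator gene MYB29 had 268, 268 and 260 normalized counts in rps6a, 198, 208 and 192 in rps6b and 262, 263 and 302 in WT (0.41, SE 0.10, adjusted limma p 0.0167). BCAT4, for the first aminotransferase of the pathway, had 775, 752 and 814 in rps6a, 607, 638 and 551 in rps6b and 538, 495 and 561 in WT (0.38, SE 0.09, adjusted limma p 0.0112). Thus rps6b was below WT for MYB29, while rps6a was above WT for BCAT4. The plastid importer gene BAT5 (0.42) and the chain-elongation gene MAM1 (0.37) also differed, and the P450 genes CYP79F1 (0.11) and CYP83A1 (0.09) overlapped. Fits that left out a library gave 3 members without rps6b replicate 1, 2 without rps6a replicate 1, rps6a replicate 2 or rps6b replicate 2, 1 without rps6a replicate 3 and 0 without rps6b replicate 3.

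A pair of jasmonate genes was lower in rps6a. LOX2 (AT3G45140), the plastid lipoxygenase that starts jasmonate synthesis, had 3233, 3259 and 3110 normalized counts in rps6a, 5428, 5016 and 5041 in rps6b and 1476, 1259 and 1240 in WT. Both mutants were above every WT library, and rps6b was above rps6a. The log2 fold change between them was -0.69 (SE 0.09, adjusted limma p 2.59e-06; -0.31 with spike-in scaling, adjusted limma p 0.0623). The repressor gene JAZ6 had 143, 170 and 158 in rps6a, 214, 217 and 203 in rps6b and 146, 158 and 180 in WT (-0.43, adjusted limma p 0.0194). These were 2 of 13 tested members (15.4%), beside 1.62% of all genes tested, with a median of -0.04. With spike-in scaling 4 members were higher, none was lower and the median was 0.33, while edgeR gave 4 lower members and DESeq2 3. The count was 1 without rps6a replicate 1, rps6b replicate 1 or rps6b replicate 2. AOS, the next enzyme gene after LOX2, had 687, 844 and 893 against 1027, 1030 and 1112 (-0.39, adjusted limma p 0.0513).

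Only single anthocyanin and clock genes differed in either direction between the mutants. Of the anthocyanin and flavonol genes, 1 of 17 tested differed (5.88%), beside 2.92% of all genes tested, and the median was -0.22 (0.16 with spike-in scaling). LDOX had 255, 263 and 257 normalized counts in rps6a, 325, 371 and 429 in rps6b and 55.7, 70.8 and 58.2 in WT (-0.53 between the mutants, adjusted limma p 0.177). The member that differed was MYBL2, a repressor of the pathway, with 208, 175 and 189 in rps6a, 156, 143 and 142 in rps6b and 369, 327 and 380 in WT (0.37, adjusted limma p 0.0215). It was lost without rps6a replicate 1, rps6a replicate 3, rps6b replicate 2 or rps6b replicate 3. Among 17 clock genes, the morning gene LHY was lower in rps6a (-0.26, adjusted limma p 0.0471; 0.11 with spike-in scaling) and AT3G54500, also known as LNK2, was higher (0.28, adjusted limma p 0.0305). The clock genes that differed were 11.8% of those tested, beside 2.92% of all genes tested. LHY had 746, 691 and 709 in rps6a, 895, 859 and 822 in rps6b and 1419, 1527 and 1590 in WT. Its call was lost when any 1 library was left out, and that of AT3G54500 in all such fits but the fit without rps6b replicate 3.

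Single members of other lists differed. KIN1, a cold-induced gene, had 59.3, 49.8 and 46.8 normalized counts in rps6a, 29.8, 14.7 and 18.9 in rps6b and 35.6, 43.6 and 43.9 in WT (1.31, SE 0.30, adjusted limma p 0.0137), as 1 of 7 tested cold genes (14.3%), beside 2.92% of all genes tested. It was lost without rps6a replicate 1, rps6b replicate 2 or rps6b replicate 3. Among 7 senescence genes, the chlorophyll b reductase gene NYC1 was higher (0.36, adjusted limma p 0.0213) and the sugar transporter gene SAG29 was lower in rps6a (-0.50, adjusted limma p 0.0259). These were 28.6% of the tested members, beside 2.92% of all genes tested. NYC1 was called without rps6a replicate 2 or rps6b replicate 2, and SAG29 without rps6a replicate 3 or rps6b replicate 1, and neither without the other libraries. No member differed among 16 leaf polarity, 26 cell division, 7 DNA damage, 11 sugar starvation, 5 alternative oxidase, 5 heat shock and 2 apex and flower genes in limma, with 0, 1, 3, 4, 0, 2 and 1 at an unadjusted p under 0.05. Over all genes tested 2.92% differed, a share at which lists this short can hold no differing gene. With edgeR and DESeq2 the counts were the same except for 1 DNA damage gene that was higher in rps6a. The medians of these lists, in that order, were 0.00, -0.07, 0.34, 0.25, 0.03, -0.20 and -0.20. With spike-in scaling the medians of the cell division, heat shock and apex lists turned to 0.31, 0.17 and 0.16, and edgeR gave 0.0061 for heat shock. Without rps6b replicate 1, 2 sugar starvation genes were higher in rps6a. The DNA damage gene GMI1 had 198, 195 and 187 in rps6a and 143, 148 and 168 in rps6b, both above 26.3, the highest WT value, and its difference of 0.34 did not pass the test (adjusted limma p 0.304).

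**Figure D5:**
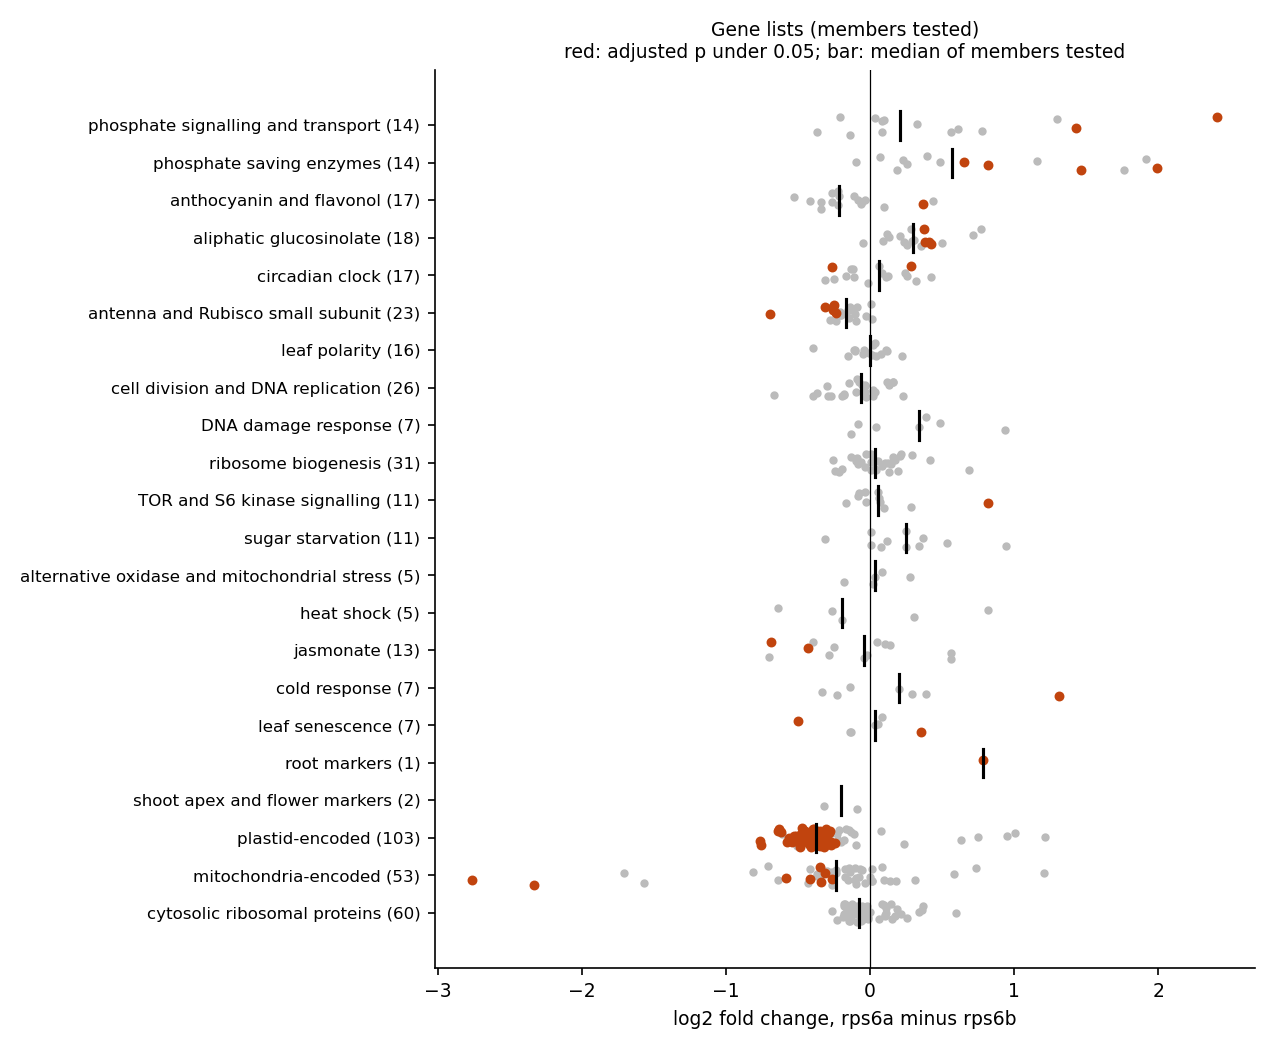
Log2 fold change of rps6a against rps6b (x axis) for the tested members of each gene list (number tested in parentheses). Points are genes, red points differed at an adjusted p under 0.05, and black bars are medians of the tested members. Phosphate and glucosinolate medians lie above 0, plastid, mitochondrial and antenna medians below it, and ribosome biogenesis and leaf polarity medians near 0.

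Around the mutated genes few tested genes differed, and the nearest were those that directly follow RPS6B. In gene order none of the 100 tested genes around RPS6A differed, and the nearest that did, AT4G32480 (1.03), lay 64 tested genes away. Of the 100 around RPS6B 5 differed, beside 2.92% of all genes tested, and 4 of these lay within 20 tested genes on either side. Counts this small beside that share do not set the regions apart. The gene after RPS6B, AT5G10370 (a helicase domain gene), had 115, 106 and 93.6 normalized counts in rps6a, 172, 164 and 161 in rps6b and 103, 129 and 115 in WT (-0.66, SE 0.12, adjusted limma p 0.00112; -0.28 with spike-in scaling, adjusted limma p 0.157). The next, RING1 (AT5G10380), a ubiquitin ligase gene of pathogen-induced cell death, had 16.9, 19.9 and 16.7 in rps6a, 39.99, 39.9 and 42.2 in rps6b and 28.5, 19.97 and 31.5 in WT (-1.15, SE 0.22, adjusted limma p 0.00138). In both, every rps6b library was above every WT library. SULTR2;1, a sulfate transporter gene, was higher in rps6a (0.39), and MIPS3 (-0.59) and PPa6 (-0.36; 0.01 with spike-in scaling) were lower. MIPS3 kept its call only without rps6b replicate 2 among the fits that left out a library, and PPa6 lost it without rps6a replicate 1, rps6a replicate 2 or rps6b replicate 2. Whether the mutation in rps6b touches its neighbours was not tested.

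Over whole chromosomes the share of differing genes ran from 2.21% of tested genes on chromosome 5 to 2.90% on chromosome 2. The densest run of 50 tested genes held 10 of them, on chromosome 3 from AT3G16340 to AT3G17020, where the median run held 1 and the 99th percentile was 5. This run was singled out as the maximum of 15934 overlapping runs. It holds a cluster of jacalin-like lectin genes, some of whose products bind PYK10. PBP1, the PYK10-binding protein gene, had 1000.2, 999.7 and 1081 normalized counts in rps6a and 719, 732 and 662 in rps6b (0.54, adjusted limma p 0.000249). JAL34 had 530, 526 and 614 against 333, 369 and 323 (0.70, adjusted limma p 0.000258), JAL33 was higher by 0.72 and JAL31 by 1.06. NSP1, a nitrile specifier gene of glucosinolate breakdown in the same cluster, had 668, 686 and 733 against 453, 483 and 475 (0.56, adjusted limma p 0.000202). These genes were higher in rps6a together with PYK10, whose values and those of the root markers are given with it.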

How the data were processed

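Per the file headers and name, the authors deposited DESeq2-normalized counts, a signal per gene and library. Per the submitters' processing notes, STAR 2.7.6a, featureCounts 2.0.0 and DESeq2 1.26.0 were used with TAIR10. The annotation, strand setting and filters are not given in the sources used here. Every positive value was a whole multiple of 1 step per library within 0.05 reads (100% of values), so whole reads were recovered. On these reads edgeR 4.0.16 called 639 genes and DESeq2 1.42.0 called 438. The 77 spike-in rows stayed out of library sizes and tests.

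The test was limma 3.58.1 (R 4.3.3) moderated with trend and robust options, on log2(normalized count + 1), a scale that understates changes of low genes. A single fit held all 15 libraries and estimated each genotype. Genes with a mean of at least 10 were tested, two-sided, with Benjamini-Hochberg adjustment over all 16335. Tested on simulated data of this comparison with 16335 genes, it recovered 85% of 2-fold and 26% of 1.5-fold changes with 2 false calls. The simulation gave all genes the same fixed dispersion and changed only genes averaging at least 50 normalized counts. Lower genes, and genes or libraries of wider spread, are thus not covered by these values. Replicates differed by more than sampling noise (chi-square per degree of freedom 2.59 to 5.32). Comparisons with WT share the rps6a and rps6b libraries with the main one and are given side by side as values.

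Names came from TAIR10.1, in which 21565 of 21777 IDs matched. Plastid and mitochondrial IDs had no name there. Named genes are RPS6A and RPS6B, the 12 largest rises and falls among genes whose higher group averaged 50 or more and whose libraries did not overlap, up to 6 differing and 3 abundant members of each list, and the 5 differing genes nearest to each mutated gene. PS2, PEPC1, PAP17, ATCG00020, RPS15, AT2G43030, AT3G53430, AT5G18380 and the genes of the chromosome 3 run were named after their values were seen where the rule did not give them. Of 323 listed IDs 6 were left out because their reference name did not match. Members and lists were chosen with earlier results of these data known, and no list was tested as a set. The sequence of 1 further promoter is not reported here.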

Additional observations from a re-analysis of the deposited data

How the results depend on the processing

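The count of differing genes, 477, was 639 with edgeR, 438 with DESeq2, 4641 with spike-in scaling, 155 with limma without trend and robust moderation, and 293 to 358 when 1 library was left out. Those of at least 2-fold, 94, were 328 with spike-in scaling and 11 at a mean of at least 100, where fewer low genes were tested. Spike-in scaling gave medians of 0.58 for phosphate signalling and transport, 0.94 for phosphate-saving enzymes and 0.00027 for plastid-encoded genes, and an eS6 sum difference of -287. The plastid share difference was -5.01 points without ATCG00020, and the mitochondrial one -0.00950 without ATMG00020 and ATMG01390, an alternative chosen after seeing the data. Among others, spike-in scaling turned LHY (0.11), LHCB2.1 (0.062), CAB1 (0.12), CAB2 (0.14), LHCB2.3 (0.12), LHCB5 (0.11), ARF2 (0.37), ATCG00020 (0.26), ATMG00090 (0.063), ATMG00660 (0.036), ATMG00510 (0.030) and PPa6 (0.014) to positive values. The list is not complete, and the cause was not tested. Replicate numbers did not pair the libraries: deviations of same-numbered libraries correlated at 0.072, -0.032 and -0.0081. A replicate block gave 534 genes over all libraries and 645 over the 6. In the simulation only 26% of 1.5-fold changes were recovered, so small changes may be missed, and recovery in the real libraries was not measured.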

Other observations

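Several genes of the iron-deficiency response were lower in rps6a than in rps6b. The list was drawn up after 2 of its members, AT1G13609 and AT2G30766, had appeared among the largest falls, so its count is a description. Of 11 tested members 7 were lower in rps6a, beside 1.62% of all genes tested, and none was higher, with a median log2 fold change of -0.70 (-0.33 with spike-in scaling, where 4 were lower and 1 higher). BTS, a ubiquitin ligase gene that restrains iron uptake, had 464, 418 and 405 normalized counts in rps6a, 727, 605 and 772 in rps6b and 525, 619 and 597 in WT (-0.70, SE 0.09, adjusted limma p 6.38e-06; -0.33 and adjusted p 0.0718 with spike-in scaling). NAS4, for a nicotianamine synthase that makes a metal chelator, had 70.1, 84.7 and 87.7 in rps6a, 176, 144 and 165 in rps6b and 104, 101 and 105 in WT (-0.99, SE 0.16, adjusted limma p 0.000173). WT lay between the mutants for NAS4, and above rps6a and overlapping rps6b for BTS. OPT3, a gene for transport of iron in the phloem, had 606, 552 and 479 in rps6a, 837, 717 and 854 in rps6b and 518, 481 and 441 in WT (-0.56, adjusted limma p 0.000723), so that rps6b alone stood above WT. The defensin-like gene AT1G13609 had 33.9, 28.2 and 25.9 in rps6a and 86.3, 76.6 and 196 in rps6b (-1.87, adjusted limma p 0.000194). The ferric reductase gene FRO3 (-0.83) and ORG1 (-0.88) were also lower in rps6a, FRO3 not without rps6a replicate 1, rps6a replicate 2 or rps6b replicate 3. The iron store gene FER1 had the opposite sign, with 882, 816 and 848 in rps6a and 629, 789 and 617 in rps6b (0.33, adjusted limma p 0.0621).

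Type-A response regulators, which cytokinin induces and which dampen its signalling, were listed after ARR7 had appeared among the largest falls. Of 7 tested, ARR7 and ARR4 were lower in rps6a, beside 1.62% of all genes tested, and none was higher, with a median of -0.31 (0.05 with spike-in scaling). ARR4 had 111, 108 and 87.7 normalized counts in rps6a, 191, 179 and 151 in rps6b and 221, 169 and 216 in WT (-0.76, SE 0.15, adjusted limma p 0.00270). Its rps6b libraries overlapped WT and its rps6a libraries were below both. ARR6 had 24.2, 18.3 and 17.5 against 40.8, 33.4 and 35.04 without passing the test (-0.84, adjusted limma p 0.119).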
